A study of Arabidopsis thaliana with 24 samples.

Results

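The genes described here are the 10 *Arabidopsis thaliana* genes of the route that leads from tryptophan through indole-3-acetaldoxime and indole-3-acetonitrile to the auxin indole-3-acetic acid, with the steps that branch off it or feed its last part. They were taken by identifier and are 10 of the 33540 genes counted. RNA was sequenced from whole wild-type Col-0 seedlings of 2 or 7 days, grown in short days at control temperature (22°C) or high temperature (27°C), whose medium held either 8.5 µM Heatin or only its solvent DMSO (mock), and collected at dawn. The groups were thus mock at 22°C, mock at 27°C, Heatin at 22°C and Heatin at 27°C at each age, and all 8 carried DMSO. Each group had 3 samples, 24 in all, and each sample was a pool of RNA from 3 separate harvests. Heatin is a small molecule that promotes elongation of the hypocotyl, the seedling stem, and high temperature does so too. Because whole seedlings were used, fewer cells of a type and less RNA per cell cannot be told apart.

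Auxin is the main growth hormone of elongating seedling tissue. Most of it is made from tryptophan through indole-3-pyruvate by TAA1 and the YUCCA enzymes, while in plants of the cabbage family the cytochromes P450 CYP79B2 (AT4G39950) and CYP79B3 (AT2G22330) also turn tryptophan into indole-3-acetaldoxime. From there CYP83B1 (AT4G31500) and the C-S lyase SUR1 (AT2G20610) lead to the indole glucosinolates, which are defence compounds, and loss of either gene is known to raise auxin. CYP71A13 (AT2G30770) makes indole-3-acetonitrile from the aldoxime, mainly for the phytoalexin camalexin, and indole-3-acetonitrile is also released when indole glucosinolates are broken down. The nitrilases NIT1 (AT3G44310), NIT2 (AT3G44300) and NIT3 (AT3G44320) can hydrolyse indole-3-acetonitrile to indole-3-acetic acid. Their relative NIT4 (AT5G22300) acts on beta-cyanoalanine, a product of cyanide detoxification, and the amidase AMI1 (AT1G08980) makes indole-3-acetic acid from indole-3-acetamide.

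In the TAIR10.1 assembly NIT2 (chr3:15983199-15985535), NIT1 (chr3:15986624-15989505) and NIT3 (chr3:15993259-15995811) stand in a row on the plus strand of chromosome 3, and NIT4 lies at chr5:7379187-7382025. The coding sequences of NIT1 and NIT2 are identical at 91.4% of aligned bases, those of NIT1 and NIT3 at 87.6%, those of NIT2 and NIT3 at 86.6%, and NIT4 is 72.8% to 74.3% identical to the others. Reads were 50 bases long, so a read can be shared only where 50 bases are the same. Of all 50-base windows of its coding sequence, NIT1 shared 8.67% with NIT2, and NIT2 shared 8.86% with NIT1. The share of windows was 0.907% between NIT1 and NIT3, and 0 between NIT2 and NIT3 or between NIT4 and any of them. These are shares of windows, and the shared windows cover a larger part of the bases. The longest runs shared with NIT1 are shown because reads from inside them cannot be given to 1 gene; the whole run is the same in both genes, so no base is in capitals. The first, of 91 bases, is at chr3:15988319-15988409 in NIT1 and chr3:15984644-15984734 in NIT2, and the second, of 58 bases, at chr3:15988163-15988220 in NIT1 and chr3:15994807-15994864 in NIT3.
NIT1 and NIT2: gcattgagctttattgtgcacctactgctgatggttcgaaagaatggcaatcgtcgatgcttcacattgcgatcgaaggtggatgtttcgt
NIT1 and NIT3: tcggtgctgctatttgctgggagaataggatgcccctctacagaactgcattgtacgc

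CYP79B2 (chr4:18525042-18527602) and CYP79B3 (chr2:9488413-9491404), both on the plus strand, have coding sequences identical at 80.5% of aligned bases and share no window of 50 bases. Their 250 bases before the gene start, chr4:18524792-18525041 and chr2:9488163-9488412 of TAIR10.1 (RefSeq), are shown because the pair catalyses the same step and these stretches hold a common block. The block, in capitals, has 40 bases, of which 1 differs. It begins 95 bases before the start of CYP79B2 and 169 bases before that of CYP79B3, and each form of it is in 1 of the 27997 upstream stretches of that length.
CYP79B2: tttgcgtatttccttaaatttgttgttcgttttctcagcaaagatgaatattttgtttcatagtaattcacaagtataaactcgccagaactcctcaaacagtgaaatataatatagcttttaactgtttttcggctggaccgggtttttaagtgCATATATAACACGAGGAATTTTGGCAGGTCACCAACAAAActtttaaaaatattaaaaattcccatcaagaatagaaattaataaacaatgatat
CYP79B3: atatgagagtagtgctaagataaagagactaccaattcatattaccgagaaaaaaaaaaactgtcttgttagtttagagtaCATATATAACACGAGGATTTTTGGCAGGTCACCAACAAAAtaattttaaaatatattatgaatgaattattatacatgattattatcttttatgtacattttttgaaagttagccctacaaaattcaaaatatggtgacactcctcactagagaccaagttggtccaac

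The remaining genes are CYP71A13 at chr2:13109909-13111988, CYP83B1 at chr4:15273410-15275404 and SUR1 at chr2:8877887-8880440, all on the minus strand, and AMI1 at chr1:2884351-2886621 on the plus strand. CYP71A13 has a near copy, CYP71A12, with a coding sequence identical at 90.4% of bases and 0.692% of shared windows. In the 250 bases upstream, searched on both strands, the G-box CACGTG was found in SUR1, 50 bases before the start, and in NIT3, 13 bases before it. It is in 6.45% of all upstream stretches of this length. The PBE-box CATGTG was found 241 bases before NIT4 and is in 11.2% of stretches. Its letters on the opposite strand read CACATG and were searched as well. The evening element AAAATATCT (AGATATTTT on the other strand) was in none of the 10 and is in 2.36%. No match overlapped another.

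Values are normalized read counts: reads per gene divided by 1 depth factor per sample, as the authors deposited them. The samples held 19705950 to 60575036 reads on genes (median 34387203.5). Summed shoot markers (RBCS1A, CAB2 and 4 others) had medians of 582857 and 637903 in mock at 22°C and 27°C at 2 days, but 1473742 and 656299 at 7 days, where all 6 fell at 27°C. Of 8 root markers, 2 rose and 3 fell with warmth at 2 days, and 6 fell and 0 rose at 7 days. Their sum at 7 days was 109376 to 123719 in the cooler and 64574 to 77936 in the warmer samples. PYK10 made up most of that sum, with means of 110031 and 68927. CASP1 had means of 1464 and 1342 there, and PHT1;1 of 1852 and 1840. IRT1, the root iron transporter among them, had 0 to 2.83 normalized reads in the mock at 2 days. Of 8 seed storage markers, 0 and 2 rose with warmth at 2 and 7 days. Among all genes, by the threshold given below, 35.3% rose and 34.3% fell at 2 days, and 28.8% rose and 32.9% fell at 7 days. The part of these tissue differences in the results below was not tested.

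**Figure D1:**
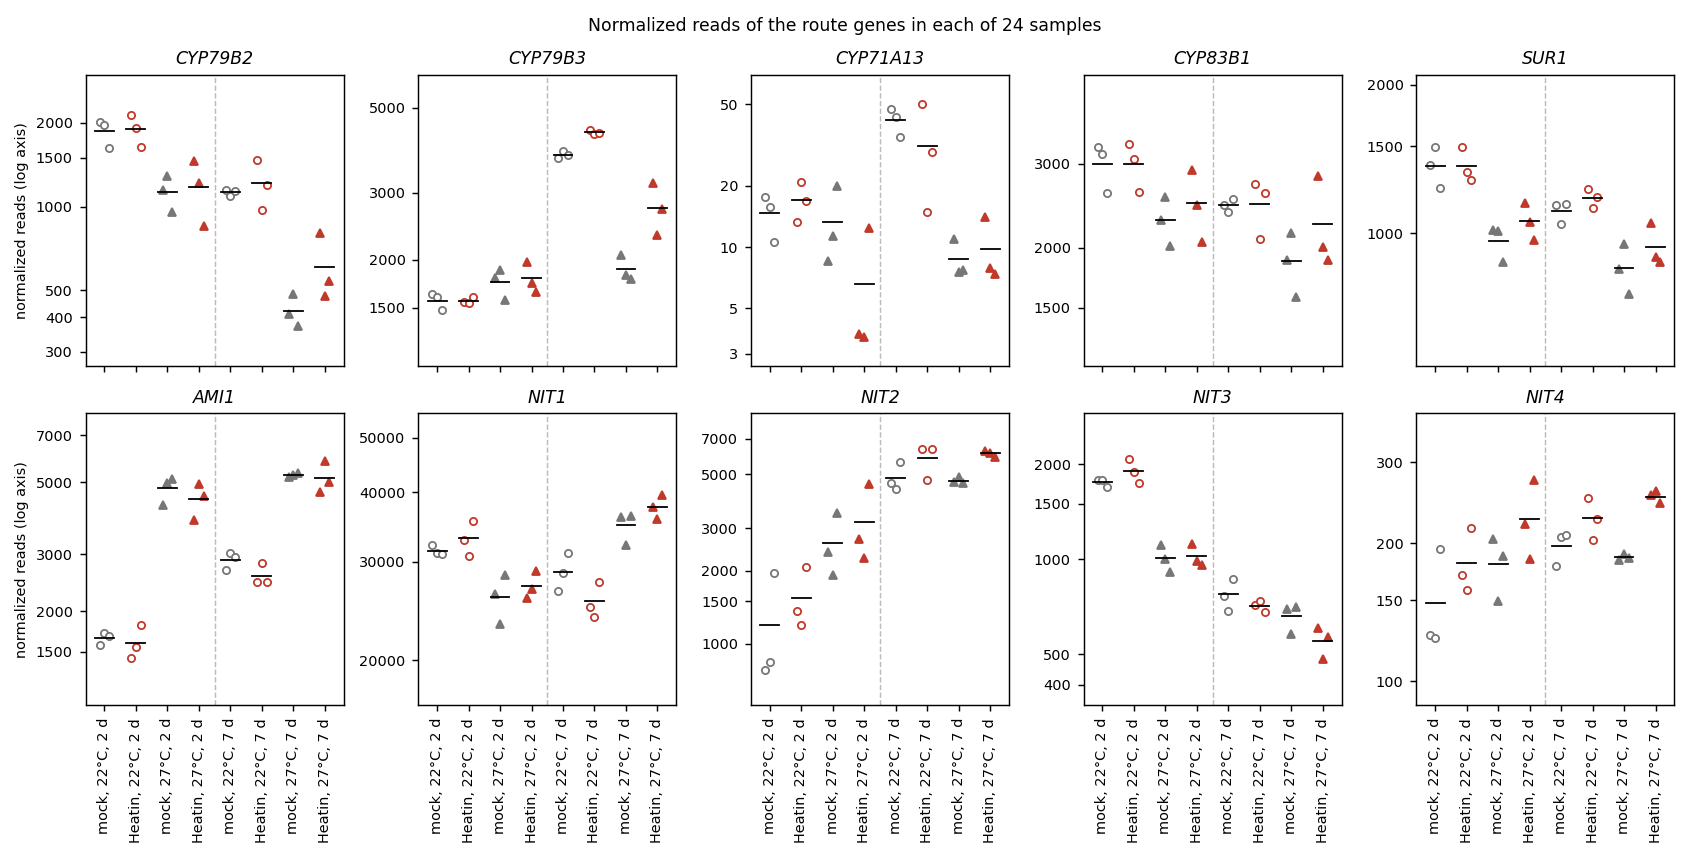
Normalized reads (log axes, a separate range for each gene) of the 10 genes in each of the 24 samples; grey is mock, red is Heatin, open circles are 22°C, filled triangles are 27°C, the bar is the mean of 3 samples and the dashed line separates 2 days from 7 days. AMI1 was higher at 27°C than at 22°C at both ages, NIT2 was higher at 7 days than at 2 days, and the replicates of CYP71A13 spread the most.

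Compared per length (normalized reads per kb of coding sequence), NIT1 was the most abundant of the 10 in every group. In mock seedlings at 22°C and 2 days its level was 30199.9 ± 628 per kb (SD, n = 3), followed by CYP83B1 at 1999 ± 231 and NIT3 at 1685 ± 46.7. AMI1 (1293 ± 55.7), NIT2 (1171 ± 648), CYP79B2 (1070.5 ± 120.1), SUR1 (986 ± 93.0) and CYP79B3 (921 ± 46.8) followed, and neighbours in this middle part of the order did not differ beyond their spread. NIT4 had 139 ± 37.6 and CYP71A13 9.83 ± 2.45, and both kept the last places in all 8 groups. At 7 days in mock at 22°C the order behind NIT1 was NIT2 (4745 ± 647), AMI1 (2253 ± 141), CYP79B3 (2214 ± 46.3), CYP83B1 (1638 ± 49.6), SUR1 (799 ± 41.0), NIT3 (742 ± 87.0) and CYP79B2 (645 ± 17.8), in which AMI1 did not differ from CYP79B3, nor SUR1 from NIT3, beyond their spread. CYP71A13 rests on few reads, 3 in the lowest sample, so its changes are understated by the constant of 1 that was added before logarithms were taken.

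At 2 days the comparison of 27°C with 22°C in mock seedlings asked how high temperature alone acted on the route. AMI1 and NIT2 were upregulated, while CYP79B2, CYP83B1, SUR1, NIT1 and NIT3 were downregulated, so 7 of the 10 genes changed. The threshold for a call was a limma p-value below 0.1 after Benjamini-Hochberg adjustment over all genes tested. By that rule 69.6% of all 23140 genes changed at this age, 35.3% upwards and 34.3% downwards, so a count of 7 is near the background. The median log2 change was -0.23 over the 10 genes and 0.01 over all genes.

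AMI1 had 1573, 1709 and 1677 normalized reads in the 3 mock samples at 22°C and 4243, 4991 and 5136 at 27°C. All samples at 27°C were above all at 22°C, a 2.89-fold rise (log2 1.53, SE 0.11, limma adjusted p = 1.5e-06). It was the largest change of the 10 genes in this comparison.

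Of the nitrilases that act on indole-3-acetonitrile, NIT2 moved against both others. NIT2 had 782, 844 and 1957 normalized reads at 22°C and 2395, 1930.0 and 3471 at 27°C, a log2 change of 1.21 (SE 0.37, limma adjusted p = 0.012). The groups touched, because replicate 3 at 22°C was higher than replicate 2 at 27°C. At this age replicate 3 was the highest of its group in all 4 groups, and with 1 sample left out in turn the log2 change ran from 0.97 to 1.63 with adjusted p-values of up to 0.056.

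NIT3 fell from 1777, 1786 and 1698 normalized reads to 1105, 1002 and 909, with no overlap (log2 -0.81, SE 0.087, limma adjusted p = 1.3e-05). NIT1 had 32191, 31111 and 31012 at 22°C against 26256, 23259.9 and 28372 at 27°C, a smaller fall without overlap (log2 -0.28, SE 0.097, limma adjusted p = 0.023). Without replicate 2 at 27°C, its lowest sample, the adjusted p-value of NIT1 was 0.104. NIT4 had 148 ± 40.2 normalized reads at 22°C and 180.5 ± 27.8 at 27°C (SD, n = 3), with overlapping groups and no call (limma adjusted p = 0.21).

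The pair of enzymes that make indole-3-acetaldoxime did not move together at 2 days. CYP79B2 had 2016, 1963 and 1629 normalized reads at 22°C and 1147, 1294 and 959 at 27°C (log2 -0.73, SE 0.18, limma adjusted p = 0.0036), and its groups were apart. CYP79B3 had 1627, 1597 and 1477 against 1796, 1885 and 1574, overlapping, with a log2 change of 0.16 (95% interval -0.02 to 0.33, limma adjusted p = 0.11). This value lay near the threshold: the limma adjusted p was 0.043 to 0.25 under the alternatives and 0.026 to 0.32 with a sample left out. On the glucosinolate branch, SUR1 fell from 1369 ± 129 to 967 ± 78.7 (log2 -0.50, adjusted p = 0.00059, limma) and CYP83B1 from 2998 ± 347 to 2286 ± 268 (log2 -0.39, adjusted p = 0.025, limma; SD, n = 3). For all of CYP79B2, CYP83B1, SUR1 and NIT3, replicate 3 was the lowest of its group in each of the 4 groups of this age. CYP71A13 had 10.6 to 17.7 normalized reads at 22°C and 8.55 to 19.9 at 27°C and was not called.

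At 7 days in the mock, 8 genes changed with high temperature: AMI1 and NIT1 were upregulated, and CYP79B2, CYP79B3, CYP71A13, CYP83B1, SUR1 and NIT3 were downregulated. The background was again high, with 61.8% of 23252 genes called, 28.8% upwards and 32.9% downwards. The median log2 change of the 10 genes was -0.31, against -0.03 over all genes. In this comparison the summed shoot and root markers fell as well, as given above.

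The 3 P450 genes that make indole-3-acetaldoxime or turn it into indole-3-acetonitrile were lower in warm 7-day-old seedlings. CYP79B3 fell from 3697, 3852 and 3749 normalized reads to 2055, 1827 and 1786 (log2 -0.998, SE 0.084, limma adjusted p = 5.6e-08). CYP79B2 fell from 1149, 1091 and 1141 to 411, 484 and 373 (log2 -1.42, SE 0.16, limma adjusted p = 1.8e-06). CYP71A13 fell from 47.7, 43.4 and 34.5 to 10.9, 7.56 and 7.68, the largest log2 change of the 10 genes (-2.15, SE 0.37, limma adjusted p = 0.00014). In each of them every sample at 27°C was below every sample at 22°C. SUR1 and CYP83B1 were also lower, by 0.39 and 0.40 on the log2 scale (limma adjusted p = 0.0011 and 0.019), again without overlap.

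AMI1 rose from 2679, 3027 and 2932 normalized reads at 22°C to 5191, 5272 and 5365 at 27°C, with the groups far apart (log2 0.88, SE 0.076, limma adjusted p = 8e-08). NIT1 rose from 26568, 28628 and 31140.5 to 36174, 32184 and 36266 (log2 0.28, SE 0.076, limma adjusted p = 0.0053), and its groups did not overlap either. NIT2, at 4839.6 ± 659.5 and 4698 ± 156, was not called (log2 -0.03, 95% interval -0.25 to 0.18). NIT4 had 198 ± 16.4 and 186 ± 2.45 and was not called (SD, n = 3). NIT3 had 767, 685 and 866 normalized reads in the cooler samples against 693, 577 and 705 in the warmer ones, with overlap (log2 -0.23, limma adjusted p = 0.065). The NIT3 call did not last: the adjusted p-value was 0.233 when every sample was set to the same total of reads on genes, and 0.116, 0.280 and 0.287 without replicate 1 or 3 at 22°C or replicate 2 at 27°C.

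**Figure D2:**
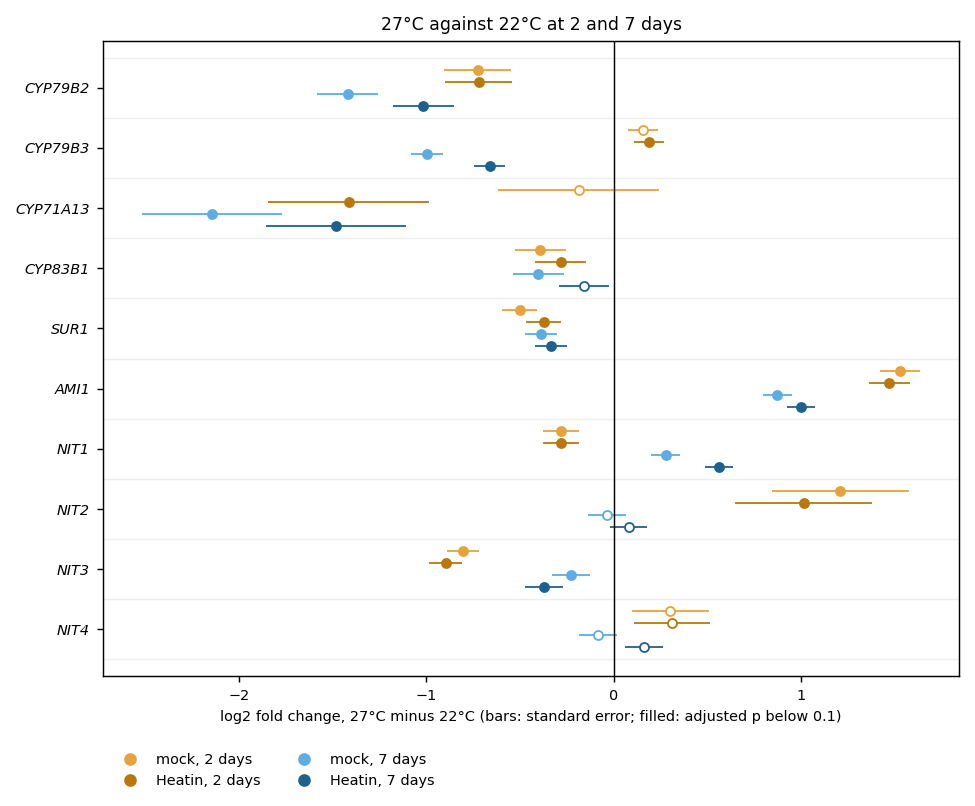
The log2 fold change of 27°C against 22°C for each gene (points; bars are standard errors of the limma fit; filled points have an adjusted p-value below 0.1) in mock and Heatin seedlings of 2 days (orange, brown) and 7 days (light and dark blue). AMI1 is to the right of 0 in all 4 comparisons, NIT1 is left of 0 at 2 days and right of it at 7 days, and CYP79B3 passes from right to left.

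Whether the temperature change differed between ages was tested as the change at 7 days minus that at 2 days in the mock, in a fit of all 24 samples. It differed in 7 of the 10 genes, against 50.1% of all 23427 genes tested. NIT1 fell with warmth at 2 days and rose at 7 days (difference 0.56 on the log2 scale, SE 0.13, limma adjusted p = 0.0014). The change of CYP79B3 was lower at 7 days by 1.16 (SE 0.12, limma adjusted p = 5.2e-07), and that of NIT2 by 1.25 (SE 0.40, limma adjusted p = 0.016). For AMI1 the rise was smaller at the later age (difference -0.66, limma adjusted p = 0.00079), and for NIT3 so was the fall (difference 0.58, limma adjusted p = 0.0025). The change of CYP79B2 was lower at 7 days by 0.70 and that of CYP71A13, which was not called at 2 days, by 1.96 (differences -0.70 and -1.96, limma adjusted p = 0.041 and 0.011). With equal totals on genes, the adjusted p-value of CYP79B2 became 0.105. The differences of CYP83B1, SUR1 and NIT4 (-0.01, 0.11 and -0.38) were not called.

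In seedlings grown on Heatin, warmth changed 9 of the 10 genes at 2 days (68.5% of all genes) and 7 at 7 days (62.9%). These are separate samples from the mock, and the values stand side by side for the temperature step in the presence of the compound. They are not a fully independent repeat, because the fit shares its estimate of spread across the samples of an age. At 2 days, deviations of samples with the same replicate number also correlated, with a mean of 0.163. AMI1 rose by 1.47 and 1.00 on the log2 scale at 2 and 7 days, and NIT3 had changes of -0.90 and -0.37. NIT1 again had the opposite sign at the 2 ages, at -0.28 and 0.56. NIT2 rose by 1.01 at 2 days (limma adjusted p = 0.029; 0.101 and 0.124 without Heatin replicate 2 at 22°C or replicate 3 at 27°C) and was not called at 7 days (0.08). CYP79B2 had log2 changes of -0.72 and -1.02 and CYP71A13 of -1.41 and -1.49, all called. CYP79B3 had 0.19 at 2 days (limma adjusted p = 0.056, up to 0.216 with a sample left out) and -0.66 at 7 days (limma adjusted p = 5.1e-06). SUR1 had changes of -0.37 and -0.33, both called. CYP83B1 had -0.28 at 2 days (limma adjusted p = 0.091, up to 0.339 with a sample left out) and was not called at 7 days (-0.16). NIT4 was called at neither age in the main limma fit (0.31 and 0.16). At 7 days its adjusted p was 0.093 with edgeR, 0.091 with voom and 0.065 with equal totals on genes (limma). At 2 days it was 0.040 with replicate number as a block (limma).

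Heatin against mock at 2 days asked whether the compound acted on the route in young seedlings. None of the 10 genes was called by limma in either temperature or in the mean of both, where the shares of all genes called were 0.00432% (22°C), 0.00432% (27°C) and 0.0173% (both), and edgeR on the recovered reads also called 0 of the 10 in each. Before adjustment, 0, 1 and 0 of the 10 and 412, 593 and 697 of all genes had a p-value below 0.05. The effect of Heatin differed between temperatures in 0 of them and in 0% of all genes at this age. At an unadjusted p-value below 0.05 that difference was met by 0 of the 10 and 304 of all genes. Among 23140 genes without any effect, a p-value below 0.05 would be expected in more genes than any of these counts.

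The intervals show what these 2-day samples could resolve in the fit used, which took no account of replicate number. For the abundant NIT1 the Heatin change at 22°C was 0.07 on the log2 scale, with a 95% interval of -0.14 to 0.28, and for AMI1 it was -0.06 (-0.29 to 0.18). For NIT2, with 782 to 1957 normalized reads in mock and 1191 to 2068 in Heatin at 22°C, the change was 0.46 with an interval of -0.33 to 1.26. NIT4 was 0.31 at 22°C (-0.14 to 0.75) and 0.32 at 27°C (-0.13 to 0.76). CYP71A13 at 27°C had 3.74, 3.64 and 12.4 normalized reads in Heatin and 8.55, 11.4 and 19.9 in mock, overlapping, a log2 change of -1.02 with an unadjusted p-value of 0.035 and a limma adjusted p of 1.

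At 7 days Heatin upregulated CYP79B3, NIT4 and NIT2 at 27°C, and no gene of the route was downregulated there. At this temperature 5.42% of all genes were called, so 3 of 10 was above the background share, though no test was made of the list. At 22°C, where 2.47% of all genes were called, none of the 10 was; 3 of them had an unadjusted p-value below 0.05, and edgeR also called 0. The median log2 change of the 10 genes was 0.20 at 27°C and 0.04 at 22°C, against -0.01 for all genes at each temperature.

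CYP79B3 had 2055, 1827 and 1786 normalized reads in mock at 27°C and 3176, 2329 and 2718 in Heatin. Every Heatin sample was above every mock sample, a 1.44-fold rise (log2 0.53, SE 0.084, limma adjusted p = 0.0016), and the call held with each sample left out in turn, with adjusted p-values of up to 0.0098. The Heatin samples at 27°C stayed below the mock samples at 22°C (3697 to 3852). At 22°C it had 4356, 4269.9 and 4291 in Heatin, also above all mock samples, but the change of 0.19 was not called (limma adjusted p = 0.35).

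NIT4 had 184, 189 and 186 normalized reads in mock at 27°C and 254, 259.7 and 244 in Heatin (log2 0.44, SE 0.10, limma adjusted p = 0.024). The samples of each group lay close together and the groups were well apart. At 22°C the groups overlapped, at 179 to 208 in mock and 203 to 250.4 in Heatin (log2 0.19, limma adjusted p = 0.45). NIT2 had 4622, 4878 and 4595 in mock at 27°C and 6254, 6113 and 5911 in Heatin, also without overlap (log2 0.38, SE 0.10, limma adjusted p = 0.052). Its adjusted p-value was 0.157 and 0.137 without mock replicate 1 or 3, and 0.164 and 0.126 without Heatin replicate 1 or 2. In a fit of all 24 samples, whose shared spread includes the more scattered 2-day samples, it was 0.651 for NIT2 and 0.228 for NIT4. At 22°C the values of NIT2 were 4578, 4351 and 5589.7 in mock and 6343, 4742 and 6354 in Heatin (log2 0.26, limma adjusted p = 0.27). With 1 sample left out in turn this change ran from 0.19 to 0.40, with limma adjusted p-values of 0.029 to 0.63. The largest change was that without Heatin replicate 2, the low sample.

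The other genes of the route were not called at 27°C. CYP79B2 had 411, 484 and 373 normalized reads in mock and 803, 475 and 539 in Heatin, overlapping at 1 sample (log2 0.49, 95% interval 0.14 to 0.84, limma adjusted p = 0.13). With 1 sample left out in turn its log2 change ran from 0.27 to 0.65, with limma adjusted p-values of 0.054 to 0.43. NIT3 pointed the other way at -0.26 (interval -0.47 to -0.04, limma adjusted p = 0.21). NIT1 had a change of 0.11 (-0.05 to 0.27) at 27°C and -0.17 (-0.34 to -0.01) at 22°C, with overlapping groups in both. AMI1, the gene that warmth raised most at 2 days, had -0.03 (-0.20 to 0.13) and -0.16 (-0.32 to 0.00). The log2 changes of CYP83B1, SUR1 and CYP71A13 were 0.25, 0.15 and 0.11 in warm seedlings, against 0.00, 0.09 and -0.55 in the cooler ones.

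Over both temperatures at 7 days, where 6.58% of all genes were called, the same 3 genes rose: CYP79B3 by 0.36, NIT2 by 0.32 and NIT4 by 0.32 on the log2 scale (limma adjusted p = 0.0019, 0.016 and 0.017). In the fit of all 24 samples NIT2 and NIT4 lost this call (adjusted p = 0.570 and 0.201). The difference of the Heatin effect between temperatures was called for none of the 10 genes (0.783% of all genes), and 2 had an unadjusted p-value below 0.05; edgeR called 0 as well. Thus a call at 27°C and none at 22°C does not show that these genes responded differently at the 2 temperatures. The difference between ages was likewise called for none (0.721% of all genes; 2 with an unadjusted p-value below 0.05; 0 by edgeR), with CYP79B3 nearest at 0.34 (limma adjusted p = 0.11). CYP79B3 was called for it with an added constant of 5 (limma adjusted p = 0.094) and with certain single samples left out. With 1 sample left out in turn its limma adjusted p ran from 0.020, without replicate 2 of Heatin at 27°C and 7 days, to 0.192. At 7 days and 27°C, where 5.42% of all genes were called, Heatin left all 6 shoot markers uncalled, while 1 of 8 root markers rose and 3 fell. Among these, IRT1 had 176 to 487 normalized reads in mock and 1555 to 2096 in Heatin, and its part in the change of CYP79B3 was not tested.

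**Figure D3:**
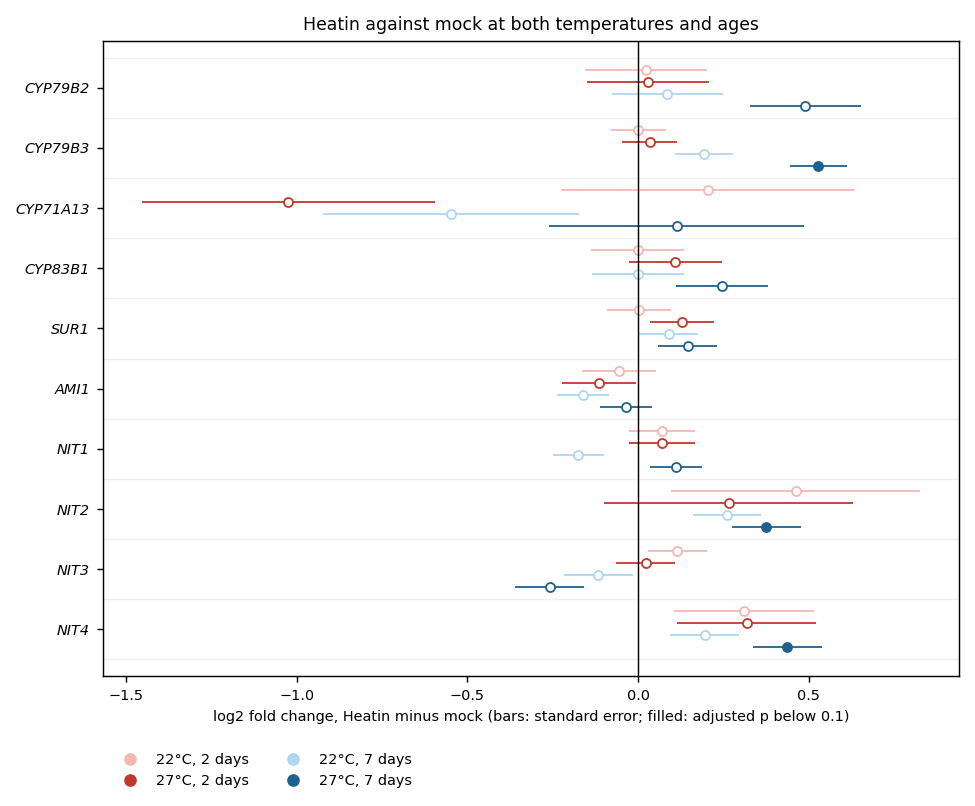
The log2 fold change of Heatin against mock for each gene (points; bars are standard errors of the limma fit; filled points have an adjusted p-value below 0.1) at 22°C and 27°C in seedlings of 2 days (pink, red) and 7 days (light and dark blue). The filled points are CYP79B3 at 0.53, NIT4 at 0.44 and NIT2 at 0.38, all at 27°C and 7 days.

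NIT1 led its subfamily in every sample, and the places of NIT2 and NIT3 behind it changed with age and temperature. Per kb of coding sequence, and described without a test, NIT1 made up 91.4% ± 1.76 of the 3 genes in mock at 22°C and 2 days, 87.7% ± 1.16 at 27°C, and 83.5% ± 1.19 and 86.4% ± 1.01 at 7 days (SD, n = 3). NIT2 made up 3.53% ± 1.93 and 8.83% ± 1.73 at 2 days and 14.3% ± 1.02 and 11.9% ± 1.09 at 7 days. NIT3 went from 5.10% ± 0.20 and 3.43% ± 0.58 to 2.24% ± 0.19 and 1.63% ± 0.087. In mock at 22°C and 2 days NIT3 thus had the larger mean share of the pair (NIT2 was ahead in replicate 3), and in the other mock groups it had the smaller. The normalized reads per kb of coding sequence, summed over the 3 genes, were 33055 ± 543 and 28454 ± 3170.0 at 2 days and 33132 ± 2808 and 38739 ± 2154 at 7 days. In Heatin at 7 days NIT2 made up 18.4% ± 1.89 at 22°C and 14.0% ± 0.84 at 27°C. On the length of all exons, where alternative transcripts lengthen NIT1, the NIT2 shares of the mock groups were 5.28%, 12.98%, 20.6% and 17.4% in the same order. The NIT1 shares on that length were lower than those per kb of coding sequence, at 86.8%, 81.8%, 76.1% and 80.1%.

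The CYP79B pair was near balance at 2 days and 22°C, and CYP79B3 led it at 27°C and at 7 days. The share of CYP79B2 per kb was 53.7% ± 1.61 in 2-day-old mock seedlings at 22°C and 38.6% ± 1.42 in those at 27°C. At 7 days it was 22.6% ± 0.84 and 17.9% ± 2.28 (SD, n = 3). The Heatin groups had 54.1% ± 3.65, 38.5% ± 4.55, 21.4% ± 3.28 and 17.5% ± 1.96 in the same order, and each overlapped its mock group.

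**Figure D4:**
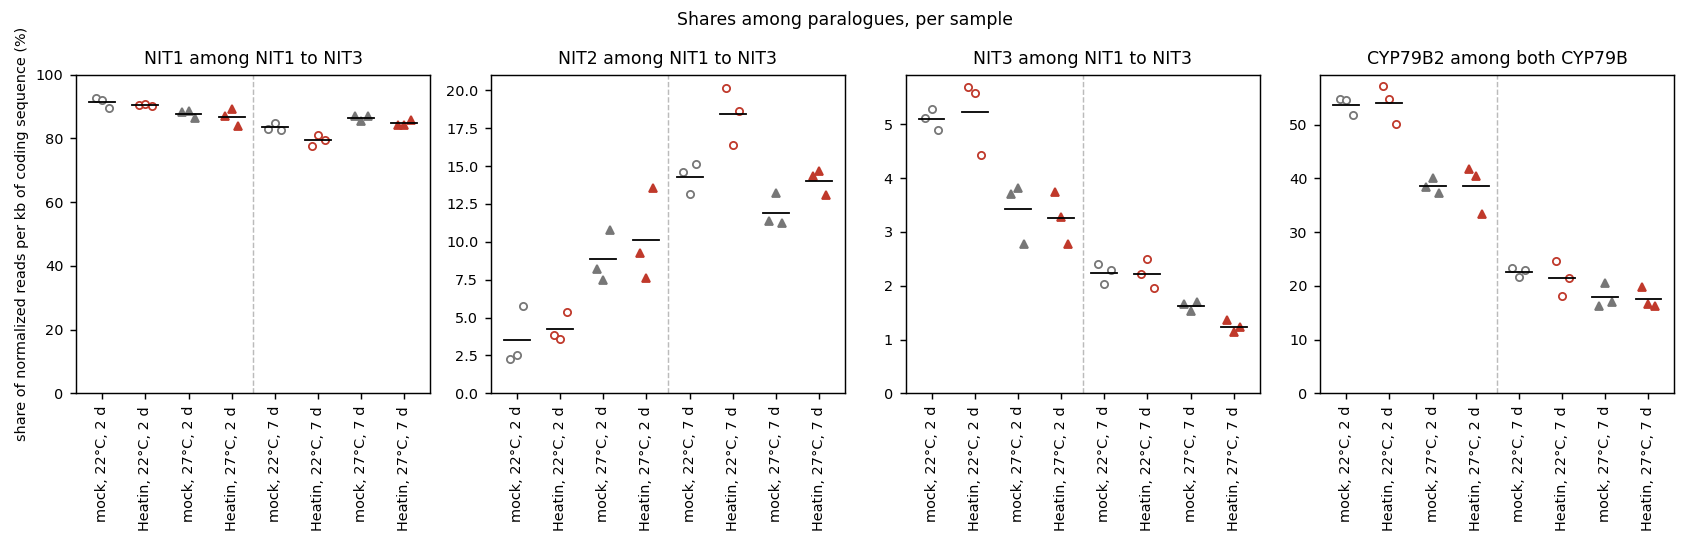
Share (%) of NIT1, NIT2 and NIT3 among these 3 genes, and of CYP79B2 among both CYP79B genes, in normalized reads per kb of coding sequence for each of the 24 samples (grey mock, red Heatin, open 22°C, filled 27°C; bars are means of 3 samples; all axes start at 0). NIT2 goes from 3.53% at 2 days and 22°C to 14.3% at 7 days in the mock, while CYP79B2 goes from 53.7% to 22.6%.

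Between 2 and 7 days in the mock at 22°C, 9 of the 10 genes changed (76.6% of all 23427 genes), and at 27°C 6 did (71.4%). NIT2 rose most, by 2.14 on the log2 scale at 22°C (4.42-fold, SE 0.28, limma adjusted p = 6.4e-07) and by 0.90 at 27°C (SE 0.28, adjusted p = 0.0084, limma). NIT3 fell by 1.19 and 0.61 and CYP79B2 fell by 0.72 and 1.42, all without overlap. CYP79B3 rose by 1.27 at 22°C (SE 0.088, limma adjusted p = 3.1e-11) and was not called at 27°C (0.11). AMI1 rose by 0.80 and CYP71A13 by 1.47 at 22°C, while their changes at 27°C, 0.14 and -0.49, were not called. NIT1 was not called at 22°C (-0.13), and it rose by 0.43 at 27°C (limma adjusted p = 0.00027). Its fall at 22°C was called at -0.28 when every sample had the same total (limma adjusted p = 0.0037). On the recovered reads that fall was called as well, at -0.17 by edgeR (adjusted p = 0.090) and -0.17 by voom (adjusted p = 0.073). NIT4 rose by 0.44 at 22°C (limma adjusted p = 0.020, and 0.102 or 0.109 without mock replicate 1 or 2 of 2 days). SUR1 and CYP83B1 had small falls, of 0.30 and 0.28 at 22°C and 0.19 and 0.29 at 27°C, with adjusted p-values of 0.0073, 0.0995, 0.086 and 0.093; apart from that of SUR1 at 22°C, these calls were lost with single samples left out, at adjusted p-values of up to 0.383. With age at 22°C all 6 shoot markers rose, 2 root markers rose and 4 fell, and all 8 seed storage markers fell. At 27°C 2 shoot markers rose and 2 fell, 1 root marker rose and 6 fell, and 6 seed storage markers fell; the part of these differences in the changes with age was not tested. Setting equal totals on genes moved the median of all genes by -0.14 in the comparison of ages at 22°C and by 0.10 in that of warmth between ages.

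The supply and neighbouring pathways were counted beside the shares of all genes called, which were 35.3% upwards and 34.3% downwards for warmth in the mock at 2 days, and 28.8% and 32.9% at 7 days. Several of the counts are near these shares. Of 11 genes of tryptophan synthesis, 0 rose and 8 fell with warmth at 2 days in the mock, led by the isomerase gene PAI2 (-1.13), the tryptophan synthase subunit gene TSA1 (-1.05) and the anthranilate synthase subunit gene ASB1 (-0.86). At 7 days 1 rose, TSB1 (0.65), and 7 fell. Of the indole-3-pyruvate route, with 11 of 12 genes tested, 2 rose and 4 fell at 2 days, with YUC8 at 1.22 and YUC7 at -2.10, and 1 rose and 7 fell at 7 days, among them TAA1 (-0.95). Among 3 MYB factors that switch on indole glucosinolate genes, MYB51 and MYB122 rose at 2 days (1.21 and 0.96) and at 7 days (0.35 and 0.69), and MYB34 fell at both (-0.65 and -0.80).

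Of 9 further genes of the indole glucosinolate and camalexin branches, 1 rose and 4 fell at 2 days, and 0 rose and 3 fell at 7 days. Their values at 2 days included -1.71 for CYP81F1, which modifies the glucosinolate ring, and 0.56 for the camalexin enzyme gene CYP71B15, which then had -0.93 at 7 days. Of 10 genes of glucosinolate breakdown, 4 rose and 4 fell at 2 days and 1 rose and 6 fell at 7 days. The myrosinase gene TGG2 had a log2 change of 1.88 at 2 days and of -1.56 at 7 days. Of the 3 genes listed beside NIT4 for cyanide detoxification (CYSC1, CYSD1 and CYSD2), 2 rose at 2 days and 1, CYSD2, fell at 7 days (-0.85). The list does not show which of them supplies the substrate of NIT4.

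Heatin called 0 genes of all these lists at 2 days. At 7 days and 22°C, with 2.47% of all genes called, it called TGG2 alone (-1.16). At 27°C, with 5.42%, it raised the nitrile specifier gene NSP1 (0.24) and the myrosinase gene TGG1 (0.19) and lowered NSP4 (-0.79), all of glucosinolate breakdown. Over both temperatures at 7 days, with 6.58% of all genes called, ASB1 rose (0.28), YUC8 fell (-0.16), and TGG2, NSP4 and the specifier gene ESP fell (-0.75, -0.48 and -0.59). The Heatin effect at 7 days differed between temperatures for 2 of the 10 breakdown genes, higher at 27°C in both (0.783% of all genes). It differed between ages for 1 of the 10, lower at 7 days (0.721% of all genes). No gene of the other lists was called for either difference.

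For each gene, the other genes with the most similar levels over the 24 samples were found by Pearson's r on log2 values among 20877 genes; the 24 points share age, temperature and library, so r is a description. AMI1 was closest to SEN1 (0.985) and ACA10 (0.983), and NIT3 to AT5G15220 (0.990). NIT2 was closest to the copper transporter gene HMA5 (0.970), CYP79B2 to MS2 (0.969) and CYP79B3 to FRO2, the iron reductase gene (0.949). Only for CYP83B1 was the closest gene another of the route, SUR1 (0.917), ahead of GSTF9 (0.907). SUR1 itself was closest to PRS2 (0.938), CYP71A13 to IQD25 (0.884), NIT4 to GSTU1 (0.874) and NIT1 to APO1 (0.857). CYP71A13 alone had a spread within groups above 0.5 on the log2 scale (0.545), and its deviations were closest to those of AT1G26250 (0.815).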

How the data were processed

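The authors mapped the reads to TAIR10 and counted them per gene without regard to strand, so reads of a gene and of an overlapping antisense gene cannot be told apart. The deposited values are this signal, read counts divided by 1 depth factor per sample, with 100% of values whole multiples of 1 read (within 0.1 reads). Relative to the reads on genes, ambiguous reads came to 1.06% to 1.28% and alignments to more than 1 place to 6.19% to 12.4%. Both were left out.

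Values were tested as log2(value + 1) with limma 3.58.1 (R 4.3.3) for genes with a mean of at least 1, using the 12 samples of an age, or all 24 for contrasts of ages. Benjamini-Hochberg adjustment covered all genes tested, with calls at an adjusted p below 0.1. The unit is not raw counts, so edgeR 4.0.16 and voom were run on the recovered reads as alternatives, next to other added constants, filters, scaling, a replicate block and samples left out. P-values measure the spread between pooled samples.

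Named were all 10 genes, of each list at most 3 called genes with the largest change, and the 3 genes most alike in pattern, of which the first are printed. The 10 genes and the lists were chosen with earlier results of these data known. Coordinates, coding lengths and sequences came from RefSeq, TAIR10.1 (Biopython 1.88).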

Additional observations from a re-analysis of the deposited data

Results flagged for a closer look

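The change with high temperature in the mock differed between 7 and 2 days for 7 of the 10 genes, by a test of the difference itself (limma, all 24 samples, adjusted over all genes). On the log2 scale, 7 days minus 2 days, it was -0.70 for CYP79B2, -1.16 for CYP79B3, -1.96 for CYP71A13, -0.66 for AMI1, 0.56 for NIT1, -1.25 for NIT2 and 0.58 for NIT3. Among all genes tested, 50.1% were called for this difference. Whether the fall of shoot and root markers with warmth at 7 days has a part in these differences was not tested.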

How the results depend on the processing

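Of 59 changes called for the 10 genes, 45 kept their call under every alternative and with each sample left out, and 14 lost it at least once. In 509 alternative values 14 calls were lost and 0 reversed, and in 972 values with 1 sample left out 48 were lost and 0 reversed. For Heatin at 27°C and 7 days, 3 genes were called, but 1 in a fit of all 24 samples and 2 to 5 with a sample left out. Over both temperatures the 3 called became 1, CYP79B3, in that fit and 3 to 4 with a sample left out. The Heatin difference between ages, called for 0, was called for 1, CYP79B3, with an added constant of 5. With a sample left out it was called for 0 to 1, as were Heatin at 22°C and 7 days and the Heatin difference between temperatures at 7 days. The ranges were 6 to 8 and 7 to 8 for warmth in mock at 2 and 7 days, 6 to 9 and 7 to 8 for warmth in Heatin, 7 to 9 and 4 to 6 for age at 22°C and 27°C, and 7 to 8 for warmth between ages.

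The labels give the groups shared replicate numbers but do not say that these pair samples. The correlation of deviations between samples of the same number averaged 0.163 at 2 days and 0.0424 at 7 days (other pairs -0.0804 and -0.0212), and was over 0.1 in 14 of 18 and 1 of 18 pairs. Since not every pair passed 0.1, the numbers were not taken as pairs. A replicate block changed the count of called genes in 6 of 16 comparisons: to 9 for warmth in mock at 2 days (CYP79B3 and NIT4 added), 10 for warmth in Heatin at 2 days (NIT4), 4 for Heatin at 27°C and 7 days (CYP79B2), 5 for Heatin over both temperatures at 7 days (CYP79B2 and NIT3), 7 for age at 27°C (AMI1) and 1 for the Heatin difference between ages (CYP79B3, adjusted p = 0.0434, limma). The block raised the counts of all genes too. It called 16898 and 16728 of 23140 for warmth in mock and in Heatin at 2 days, and 17062 of 23427 for age at 27°C. For Heatin at 7 days it called 1587 of 23252 at 27°C and 1995 over both temperatures.

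Over all genes, calls for Heatin at 2 days were 1, 1 and 4 at 22°C, 27°C and over both, and 6, 15 and 41 with the block. Those at 7 days went from 574 to 948 with the block and 241 in the fit of all 24 samples at 22°C, from 1260 to 643 in that fit at 27°C and from 1531 to 798 over both. For the difference between temperatures, 182 became 446 with the block and 40 in that fit, and for that between ages 169 became 313 with the block and 100 with voom. At 27°C and 7 days edgeR called 1366. Depth limits CYP71A13 most, with 3 reads in its lowest sample.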
